A study of Mus musculus with 9 samples.

Results

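The genes described here are the 10 that encode transforming growth factor beta (TGF-beta) ligands, their latency proteins and their receptors. They were taken by symbol from the 55335 gene identifiers of the count files: the ligands Tgfb1, Tgfb2 and Tgfb3, the latent TGF-beta binding proteins Ltbp1, Ltbp2, Ltbp3 and Ltbp4, and the receptors Tgfbr1, Tgfbr2 and Tgfbr3. All 10 passed the filter on low counts, which kept 14335 genes. RNA came from D2A1-d, a mouse breast carcinoma line that the series places in the study of metastatic dormancy, the state of tumour cells that survive at a distant site and do not proliferate. Control cells carried a non-targeting hairpin (NTC, genotype labelled WT), and knockdown cells carried shMed4 #1 or shMed4 #4, hairpins against Med4 (genotype labelled Med4 Knockdown). Med4 encodes a subunit of Mediator, which links transcription factors to RNA polymerase II. Each group had 3 libraries numbered as biological replicates. All cells were transduced, were otherwise untreated and grew in serum-containing medium. The labels do not say whether a group was a clone or a pool, or what separates the replicates of a group, and p-values therefore cover only the variation among its libraries, which may be technical. The comparison addresses which transcripts differ once Med4 is depleted.

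TGF-beta is secreted in a latent form. The ligand stays bound to its own propeptide, and this small complex is linked to a latent TGF-beta binding protein that tethers it in the extracellular matrix. Integrins, proteases and thrombospondin can release or activate the ligand. Active ligand binds the type II receptor (Tgfbr2), which phosphorylates the type I receptor (Tgfbr1), and this in turn phosphorylates SMAD transcription factors, while betaglycan (Tgfbr3) presents ligand, above all TGF-beta 2. In breast carcinoma the pathway is known both for growth arrest and for invasion, and TGF-beta 2 has been described as a dormancy signal for disseminated tumour cells.

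Libraries held 7572114 to 8582235 reads assigned to genes. Med4 had 236, 216 and 204 reads in NTC, 40, 35 and 38 with shMed4 #1 and 66, 60 and 50 with shMed4 #4, so all knockdown libraries matched their labels. In CPM (counts scaled to library size with TMM factors) its means were 27.4 ± 2.2, 4.53 ± 0.39 and 7.21 ± 0.98 (SD, n = 3). Of 7 mammary epithelial markers, Cdh1 had 0 reads in all 9 libraries and Epcam 1 read, while Krt8 and Krt18 were expressed. Krt5, Krt14 and Krt19 had 1, 16 and 8 reads in all. The summed epithelial markers, nearly all of it Krt8 and Krt18, were at 23.6 to 25 CPM in NTC. The sum was 93.8 to 111 with shMed4 #1 and 176 to 201 with shMed4 #4. Of 8 leukocyte markers, Ptprc had 12 reads in all and Cd3e 0, with summed levels of 119 to 142, 77.2 to 84.9 and 77.5 to 85.5 CPM in the order given, most of it Cd14. Summed levels of 4 markers of platelets, a cell type rich in TGF-beta 1, were 8.84 to 10.8, 5.09 to 6.60 and 4.47 to 6.95 CPM. Most of it was Itga2b, at means of 7.88, 4.71 and 3.81 CPM. Ppbp was at 1.3, 0.601 and 1.06 CPM, and Gp9 went the other way, at 0.168, 0.322 and 0.531. Pf4 had 9 reads in all. Summed levels of 5 endothelial markers were 1.29 to 1.87, 2.73 to 3.93 and 2.07 to 3.10 CPM. This rise was that of Cdh5, at means of 0.832, 2.47 and 2.26 CPM. Pecam1 was at 0.498, 0.516 and 0.411 and Tek at 0.212, 0.284 and 0.0813, and Kdr and Emcn had 1 and 0 reads in all. Summed levels of 6 fibroblast markers, with Fap at 0, were 260 to 292, 226 to 240 and 213 to 229. Mitochondrial genes took 4.43 to 4.58% of reads in NTC, 5.51 to 6.12% with shMed4 #1 and 5.81 to 6.04% with shMed4 #4. The part of these differences in the results was not tested. In bulk RNA, fewer cells of a kind and less RNA per cell cannot be told apart.

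Promoter sequences are shown for the 4 genes that carried the largest or most similar changes: Tgfb2 had the largest rise of the 10, Ltbp2 the largest fall, and Tgfb1 and Ltbp1 rose by nearly the same amounts. They are the 250 bases before the RefSeq start site on GRCm38.p6, each 5′ to 3′ on the strand of its gene. The windows are chr1:186705990-186706239 on the minus strand for Tgfb2, chr7:25686752-25687001 on the plus strand for Tgfb1, chr17:75005279-75005528 on the plus strand for Ltbp1 and chr12:84876492-84876741 on the minus strand for Ltbp2. Capitals mark matches on either strand to 6 motifs. These are the TATA box searched as TATAAA, the cyclic AMP response element searched as TGACGTCA, the E-box searched as CACGTG, the AP-1 site searched as TGANTCA, the CCAAT box searched as those 5 letters, and the GC box searched as GGGCGG. No 2 matches overlapped in these windows.
Tgfb2 promoter: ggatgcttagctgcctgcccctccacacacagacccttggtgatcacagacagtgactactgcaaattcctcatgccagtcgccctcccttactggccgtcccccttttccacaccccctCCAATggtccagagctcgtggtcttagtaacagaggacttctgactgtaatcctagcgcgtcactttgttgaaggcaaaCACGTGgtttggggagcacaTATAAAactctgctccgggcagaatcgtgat
Tgfb1 promoter: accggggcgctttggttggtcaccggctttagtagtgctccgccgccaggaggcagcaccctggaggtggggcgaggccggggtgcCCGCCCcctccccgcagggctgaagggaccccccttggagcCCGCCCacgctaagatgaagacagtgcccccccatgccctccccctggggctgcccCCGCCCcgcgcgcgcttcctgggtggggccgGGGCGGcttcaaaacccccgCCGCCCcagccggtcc
Ltbp1 promoter: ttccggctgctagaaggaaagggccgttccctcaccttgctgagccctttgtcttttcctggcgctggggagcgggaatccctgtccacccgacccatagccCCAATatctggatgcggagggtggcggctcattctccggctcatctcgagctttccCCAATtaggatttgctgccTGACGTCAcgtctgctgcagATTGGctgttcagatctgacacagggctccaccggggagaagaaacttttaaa
Ltbp2 promoter: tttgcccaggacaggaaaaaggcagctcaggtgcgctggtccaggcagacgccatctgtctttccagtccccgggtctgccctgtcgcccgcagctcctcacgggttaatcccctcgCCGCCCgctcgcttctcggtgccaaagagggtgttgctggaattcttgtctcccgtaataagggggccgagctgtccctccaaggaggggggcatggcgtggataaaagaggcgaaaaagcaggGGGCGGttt

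The 4 windows differed in sequence. Tgfb2 held a TATA box 31 to 26 bases before its start site, an E-box at 51 to 46 and a CCAAT match, motifs found in 12.4%, 6.02% and 33.8% of 32851 RefSeq promoter windows of the same length. Tgfb1 had 75.2% G and C, above 96.1% of those windows, and held 5 GC boxes and no other searched motif (32.7% of windows hold a GC box). Ltbp1 held a cyclic AMP response element at 73 to 66 bases before its start site, found in 1.55% of windows, and 3 CCAAT matches. Ltbp2 held 2 GC boxes. None of the 4 held the AP-1 letters, which 6.75% of windows hold. Tgfb1 and Ltbp1, whose levels moved alike, thus shared no searched motif, and a match to letters is a description of the sequence. Of the 10 genes, 8 had entries in the promoter table, all but Tgfb3 and Tgfbr3. Ltbp1, Ltbp4 and Tgfbr1 had more than 1 start site there, and counts per gene do not tell those transcripts apart.

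With shMed4 #1, 5 of the 10 genes were higher than in NTC (Tgfb1, Tgfb2, Tgfb3, Ltbp1 and Tgfbr2), 2 were lower (Ltbp2 and Ltbp3) and 3 did not pass an edgeR adjusted p of 0.05. Of all 14335 genes tested, 41.6% passed in that comparison, 21.8% higher and 19.8% lower. With shMed4 #4, 4 were higher (Tgfb1, Tgfb2, Ltbp1 and Ltbp4), 3 lower (Tgfb3, Ltbp2 and Ltbp3) and 3 did not pass, against 55.1% of all genes passing, 27.8% higher and 27.3% lower. With upper-quartile factors the split over all genes leaned to lower calls, 2767 higher and 3240 lower with shMed4 #1 and 3484 and 4452 with shMed4 #4. With TMM factors the median log2 fold change of the 10 genes was 0.13 with shMed4 #1 and 0.08 with shMed4 #4. For all genes it was -0.01 in each comparison. Between the hairpins 8 of 10 differed (3 higher and 5 lower with shMed4 #4), against 28.0% of all genes, 14.2% higher and 13.9% lower. Tgfb1, Tgfb2 and Ltbp1 were higher and Ltbp2 and Ltbp3 lower under both hairpins, 5 of the 10 against 33.3% of all genes. Both comparisons share the 3 NTC libraries. For 7 of the 10 genes the CPM of shMed4 #1 and NTC did not overlap (49.1% of all genes), for 7 those of shMed4 #4 and NTC (59.6%), and for 8 those of the 2 hairpins (40.2%). All 6 knockdown libraries lay outside the NTC range on 1 side for 5 of the 10, against 37.8% of all genes.

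**Figure D1:**
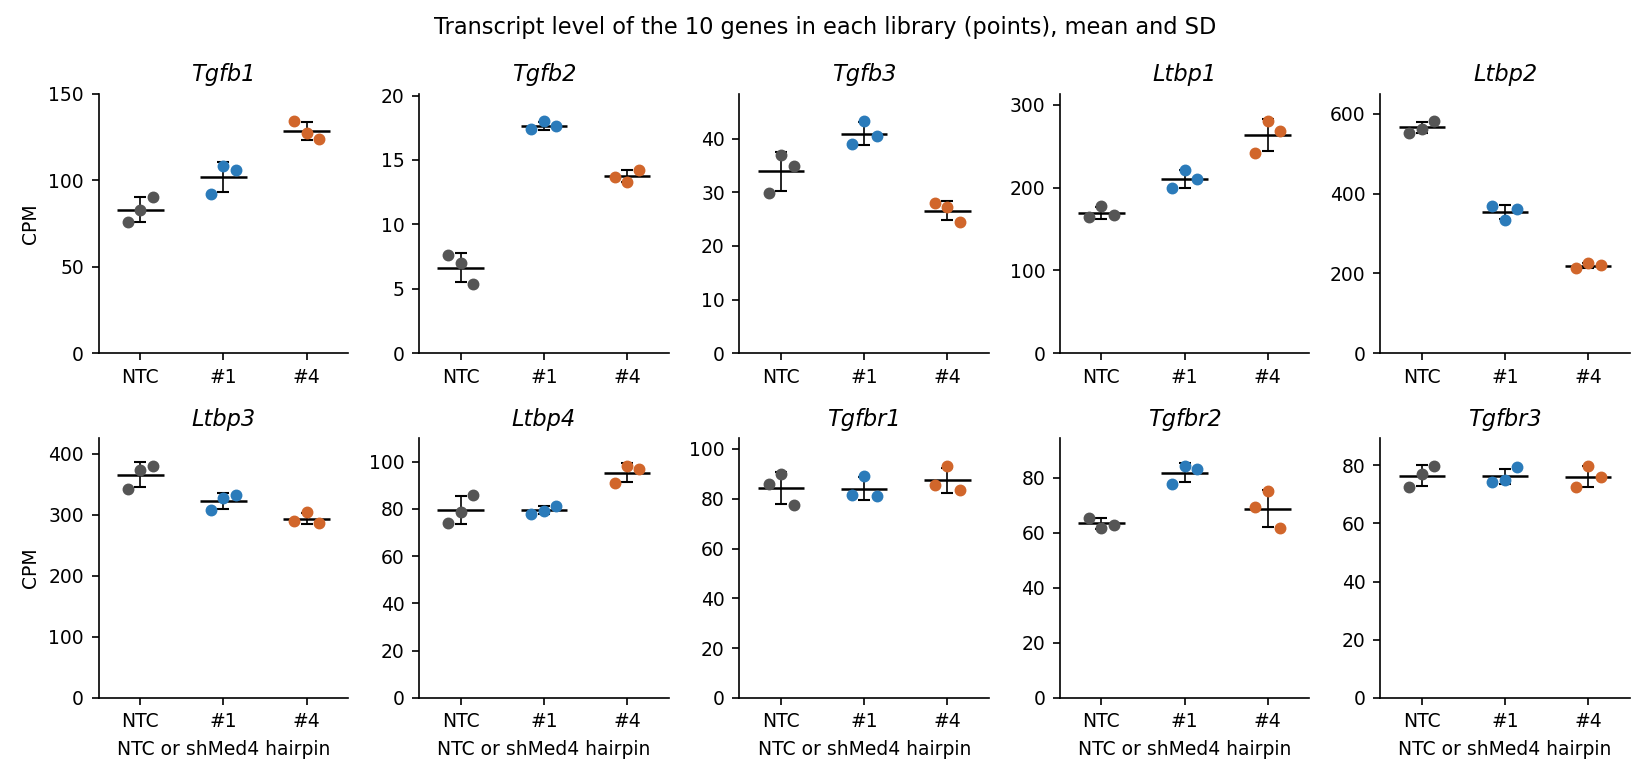
Level of the 10 genes in CPM (vertical axes, linear, each from 0) for the 3 groups on the horizontal axis; points are libraries, horizontal lines means and error bars SD (n = 3). Ltbp2 falls stepwise from 565 to 354 and 220 CPM, Tgfb1 and Ltbp1 rise, Tgfb2 is highest with shMed4 #1, and Tgfb3 lies above NTC with shMed4 #1 and below it with shMed4 #4.

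Among the ligands, Tgfb2 (ENSMUSG00000039239.14, chromosome 1, 186622792 to 186705989 in GRCm38, minus strand, protein-coding) encodes the isoform that depends most on betaglycan. It was at 7.59, 6.97 and 5.40 CPM in NTC, from 61, 54 and 44 reads. It was at 17.4, 18.0 and 17.6 CPM with shMed4 #1 and at 13.7, 13.3 and 14.2 with shMed4 #4. Every knockdown library lay above every NTC library, and the 2 hairpin groups did not overlap either. The level was 2.66 times that of NTC with shMed4 #1 (log2 fold change 1.41, SE 0.14, edgeR adjusted p = 6.86e-11) and 2.06 times with shMed4 #4 (1.04, SE 0.14, edgeR adjusted p = 8.97e-08). Of the 10 genes, only Tgfb2 changed at least 2-fold with shMed4 #1, against 6.4% of all genes. With shMed4 #4, Tgfb2 and Ltbp2 did, against 11.1% of all genes. Tgfb2 was thus the only gene of the 10 to reach this size with both hairpins. The share of all genes that reached it with both was not computed. Set against shMed4 #1, shMed4 #4 gave a lower level of Tgfb2 (-0.36 on the log2 scale, SE 0.12, edgeR adjusted p = 0.0176). That call between hairpins was lost with DESeq2 (adjusted p = 0.0793), without shMed4 #1 replicate 2 (edgeR adjusted p = 0.0504) and without shMed4 #4 replicate 2 (edgeR adjusted p = 0.0666).

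Tgfb1 (ENSMUSG00000002603.15, chromosome 7, 25687002 to 25705077, plus strand) encodes the founding and most widely expressed isoform. It was at 75.6, 82.8 and 90.3 CPM in NTC, at 91.8, 108 and 106 with shMed4 #1 and at 134, 127 and 124 with shMed4 #4. The 3 groups did not overlap, although the highest NTC and the lowest shMed4 #1 library were close. Relative to NTC, shMed4 #1 gave a log2 change of 0.30 (SE 0.07, edgeR adjusted p = 0.000383) and shMed4 #4 one of 0.63 (SE 0.07, edgeR adjusted p = 2.14e-10). The hairpins differed by 0.33 (SE 0.06, edgeR adjusted p = 0.000124).

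Tgfb3 (ENSMUSG00000021253.7, chromosome 12, 86056745 to 86079041, minus strand), the isoform known from palate and mammary development, moved in opposite directions. It was at 29.8, 36.9 and 34.9 CPM in NTC, at 39.0, 43.2 and 40.4 with shMed4 #1 and at 27.9, 27.3 and 24.5 with shMed4 #4. All shMed4 #1 libraries lay above, and all shMed4 #4 libraries below, the NTC range. On the log2 scale shMed4 #1 moved it by 0.27 (SE 0.08, edgeR adjusted p = 0.00942) and shMed4 #4 by -0.35 (SE 0.09, edgeR adjusted p = 0.00139). The difference between hairpins was -0.62 (SE 0.09, edgeR adjusted p = 8.22e-07). Of all genes tested, 113 (0.788%) passed with both hairpins in opposite directions. The rise with shMed4 #1 did not pass without NTC replicate 1 (edgeR adjusted p = 0.104), the lowest NTC library, or without shMed4 #1 replicate 2 (edgeR adjusted p = 0.0523). Of Tgfb3 exon sequence 12.4% is shared with the noncoding genes Gm37804 and Gm48008 on the other strand. Gm37804 held 136, 147 and 101 reads in NTC, shMed4 #1 and shMed4 #4, and Gm48008 held 118, 157 and 81. Whether reads were counted by strand is not given in the sources used here, so reads of Tgfb3 and of these genes cannot be told apart where they overlap.

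Averaged over both hairpins, Tgfb2 changed by 1.23 (SE 0.12, edgeR adjusted p = 1.19e-10) and Tgfb1 by 0.46 (SE 0.06, edgeR adjusted p = 1.57e-08). Tgfb3 was at -0.04 (95% interval -0.19 to 0.12, edgeR adjusted p = 0.698), an average over opposite changes. For that average 7 of the 10 genes passed, 5 higher and 2 lower, against 53.3% of all genes tested, 26.8% higher and 26.5% lower. At least 2-fold on average were Tgfb2 (2.34 times) and Ltbp2 (0.493 times), against 8.07% of all genes. Between hairpins none of the 10 differed by 2-fold, against 3.34% of all genes.

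**Figure D2:**
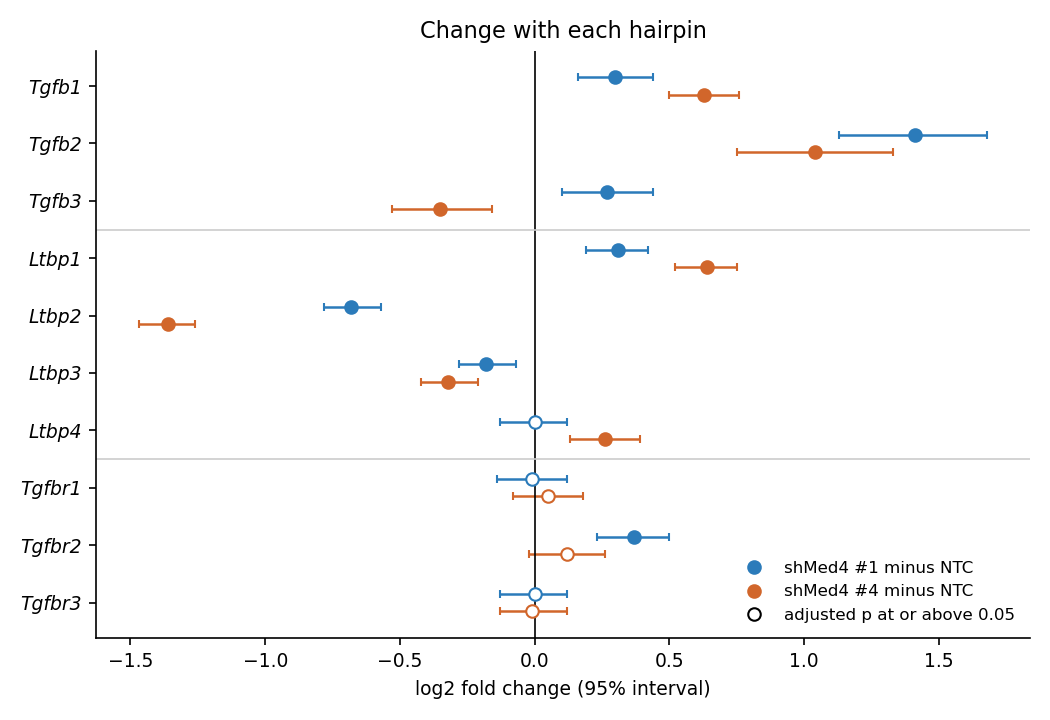
Log2 fold change against NTC (horizontal axis) of the 10 genes with shMed4 #1 and shMed4 #4; points are edgeR estimates from 3 libraries a group, lines 95% intervals, and open points did not pass an adjusted p of 0.05. Ltbp2 lies at -0.68 and -1.36, Tgfb2 at 1.41 and 1.04, and Tgfb3 has its 2 points on opposite sides of 0.

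Among the latent TGF-beta binding proteins, Ltbp2 fell and Ltbp1 rose. Ltbp2 (ENSMUSG00000002020.15, chromosome 12, 84783212 to 84876532, minus strand) encodes the family member that is a microfibril protein and is not known to bind latent TGF-beta. It was at 553, 563 and 581 CPM in NTC, at 368, 333 and 361 with shMed4 #1 and at 213, 226 and 220 with shMed4 #4. The 3 groups were far apart relative to their spread. Relative to NTC, shMed4 #1 gave a log2 change of -0.68 (SE 0.05, edgeR adjusted p = 5e-14) and shMed4 #4 one of -1.36 (SE 0.05, edgeR adjusted p = 3.12e-23), which left 0.626 and 0.389 of the NTC level. Between hairpins the difference was -0.69 (SE 0.05, edgeR adjusted p = 2.89e-13). The antisense gene D030025P21Rik shares 9.34% of Ltbp2 exon sequence and was lower too, with 1422, 824 and 516 reads in NTC, shMed4 #1 and shMed4 #4. Its log2 fold changes were -0.85 and -1.49, and reads of the pair cannot be told apart where they overlap.

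Ltbp1 (ENSMUSG00000001870.16, chromosome 17, 75005568 to 75392512, plus strand) encodes a protein that binds latent TGF-beta and anchors it to fibronectin and fibrillin matrix. It was at 164, 178 and 167 CPM in NTC, at 199, 221 and 210 with shMed4 #1 and at 242, 280 and 268 with shMed4 #4. As for Tgfb1, the 3 groups did not overlap. On the log2 scale shMed4 #1 moved it by 0.31 (SE 0.06, edgeR adjusted p = 3.04e-05) and shMed4 #4 by 0.64 (SE 0.06, edgeR adjusted p = 3.38e-12). The hairpins differed by 0.33 (SE 0.06, edgeR adjusted p = 1.67e-05). The ratio of Tgfb1 to Ltbp1 CPM was 0.462 to 0.541 in NTC, 0.461 to 0.505 with shMed4 #1 and 0.452 to 0.553 with shMed4 #4, so its ranges overlapped while both levels rose.

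Ltbp3 (ENSMUSG00000024940.11, chromosome 19, 5740904 to 5758532, plus strand), another binder of latent TGF-beta with a known role in bone and teeth, fell slightly. It was at 342, 374 and 380 CPM in NTC, at 308, 327 and 333 with shMed4 #1 and at 289, 304 and 287 with shMed4 #4. Both hairpin groups lay below the NTC range. Relative to NTC, shMed4 #1 gave a log2 change of -0.18 (SE 0.05, edgeR adjusted p = 0.00503) and shMed4 #4 one of -0.32 (SE 0.05, edgeR adjusted p = 2.65e-06). The difference between the hairpins, -0.14 (edgeR adjusted p = 0.0445), was lost with DESeq2 size factors (edgeR adjusted p = 0.0523), DESeq2 (adjusted p = 0.072) and no low-count filter (edgeR adjusted p = 0.0857). It was also lost without NTC replicate 2, shMed4 #1 replicate 2 or 3, or any 1 of the shMed4 #4 libraries (edgeR adjusted p from 0.0531 to 0.182).

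Ltbp4 (ENSMUSG00000040488.17, chromosome 7, 27305136 to 27337692, minus strand), which binds TGF-beta 1 weakly and organises elastic fibres, was at 74.2, 78.7 and 85.9 CPM in NTC. It was at 78.0, 78.9 and 81.3 CPM with shMed4 #1 and at 90.9, 98.2 and 97.1 with shMed4 #4. The shMed4 #1 libraries fell within the NTC range and the shMed4 #4 libraries above it. With shMed4 #1 the 95% interval of the log2 fold change was -0.13 to 0.12 (edgeR adjusted p = 0.973), and shMed4 #4 moved it by 0.26 (SE 0.06, edgeR adjusted p = 0.000505). The test of the difference gave 0.26 (SE 0.06, edgeR adjusted p = 0.00117). The averaged change of 0.13 (edgeR adjusted p = 0.0449) did not pass with upper-quartile factors (edgeR adjusted p = 0.164), with DESeq2 (adjusted p = 0.0908) or with the hairpins pooled as 1 group (edgeR adjusted p = 0.23). It was lost as well without NTC replicate 1 or 2, shMed4 #1 replicate 2 or 3, or shMed4 #4 replicate 2 or 3 (edgeR adjusted p from 0.0515 to 0.292).

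Among the receptors, Tgfbr2 rose with shMed4 #1, and Tgfbr1 and Tgfbr3 passed in no comparison. Tgfbr2 (ENSMUSG00000032440.13, chromosome 9, 116084293 to 116175360, minus strand), the ligand-binding type II kinase, was at 65.5, 61.9 and 62.8 CPM in NTC, at 77.9, 84.3 and 83.2 with shMed4 #1 and at 69.2, 75.2 and 61.8 with shMed4 #4. The shMed4 #1 libraries lay above all others, and shMed4 #4 overlapped NTC. The rise under shMed4 #1 was 0.37 on the log2 scale (SE 0.07, edgeR adjusted p = 2.77e-05), and the value for shMed4 #4 was 0.12 (95% interval -0.02 to 0.26, edgeR adjusted p = 0.156). The difference of -0.25 between the hairpins passed (SE 0.07, edgeR adjusted p = 0.00374). It rested on shMed4 #4 replicate 3, the lowest of its group: without it the difference was -0.18 (edgeR adjusted p = 0.0672) and the change with shMed4 #4 was 0.19 (edgeR adjusted p = 0.0264).

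Tgfbr1 (ENSMUSG00000007613.15, chromosome 4, 47353222 to 47414931, plus strand), the type I kinase that phosphorylates SMADs, was at 85.9, 90.0 and 77.4 CPM in NTC, at 81.4, 89.3 and 81.3 with shMed4 #1 and at 85.7, 93.2 and 83.6 with shMed4 #4. The groups overlapped throughout. The 95% intervals of the log2 fold change were -0.14 to 0.12 with shMed4 #1 (edgeR adjusted p = 0.942) and -0.08 to 0.18 with shMed4 #4 (edgeR adjusted p = 0.519). Tgfbr3 (ENSMUSG00000029287.14, chromosome 5, 107106570 to 107289629, minus strand), which encodes betaglycan, was at 72.5, 77.1 and 79.8 CPM in NTC, at 74.3, 75.0 and 79.3 with shMed4 #1 and at 72.4, 79.8 and 76.1 with shMed4 #4. Its 95% interval was -0.13 to 0.12 with either hairpin (edgeR adjusted p = 0.962 and 0.94). For both genes these intervals exclude changes of the size seen in Tgfb2, Ltbp1 with shMed4 #4 or Ltbp2.

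Levels were compared between genes as CPM per kb of exon. In NTC, Ltbp2 stood highest at 69.1 ± 1.7 (SD, n = 3), above 95.6% of tested genes, followed by Ltbp3 at 40.3 ± 2.3. Tgfb1 (16.4 ± 1.5) and Ltbp1 (15.9 ± 0.71) overlapped. Next came Tgfbr1 (12.9 ± 0.98), Ltbp4 (12.3 ± 0.91) and Tgfbr3 (11.7 ± 0.56), each overlapping its neighbour in this order. Below them were Tgfb3 at 10.0 ± 1.1 and Tgfbr2 at 7.75 ± 0.23. Tgfb2 was lowest at 1.15 ± 0.19, above 12.6% of tested genes. With shMed4 #1 the first 6 places were unchanged, Tgfb3 (12.1 ± 0.63) overlapped both Ltbp4 and Tgfbr3 (11.6 ± 0.41), and Tgfb2 stayed lowest at 3.05 ± 0.06. With shMed4 #4, Ltbp3 (32.3 ± 1.1) stood above Ltbp2 (26.9 ± 0.75). Ltbp2 then overlapped Tgfb1 (25.4 ± 1.0), which overlapped Ltbp1 (24.6 ± 1.8), and Tgfb2 was again last at 2.37 ± 0.08.

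Sums over each group of genes, and the share of each gene in them, were compared next. Summed ligand level was 25.1 to 29.2 CPM per kb in NTC, 32.7 to 37.4 with shMed4 #1 and 34.3 to 37.2 with shMed4 #4, so both hairpin groups lay above NTC and overlapped each other. Tgfb1 made up 59.6 ± 2.0% of the ligand sum in NTC (SD, n = 3), 57.2 ± 1.4% under shMed4 #1 and 71.3 ± 0.5% under shMed4 #4. Tgfb3 held 36.2 ± 1.8%, 34.2 ± 1.0% and 22 ± 0.83%, and Tgfb2 4.21 ± 1.0%, 8.65 ± 0.46% and 6.66 ± 0.44%. With shMed4 #1 the shares of Tgfb1 and Tgfb3 overlapped those of NTC while the sum was higher, and with shMed4 #4 all 3 shares lay outside the NTC range. Summed binding-protein level was 132 to 142 CPM per kb in NTC, 110 to 113 with shMed4 #1 and 94.7 to 102 with shMed4 #4. Ltbp2 went from 50.3 ± 0.83% of that sum in NTC to 39.1 ± 2.0% and 27.3 ± 0.33%, and Ltbp1 from 11.5 ± 0.49% to 17.7 ± 0.98% and 25 ± 0.88%. Summed receptor level overlapped between shMed4 #4 (32.0 to 35.7) and both other groups, NTC at 31.7 to 33.1 and shMed4 #1 at 33.3 to 35.4, which were apart. No test was run on these sums and shares.

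**Figure D3:**
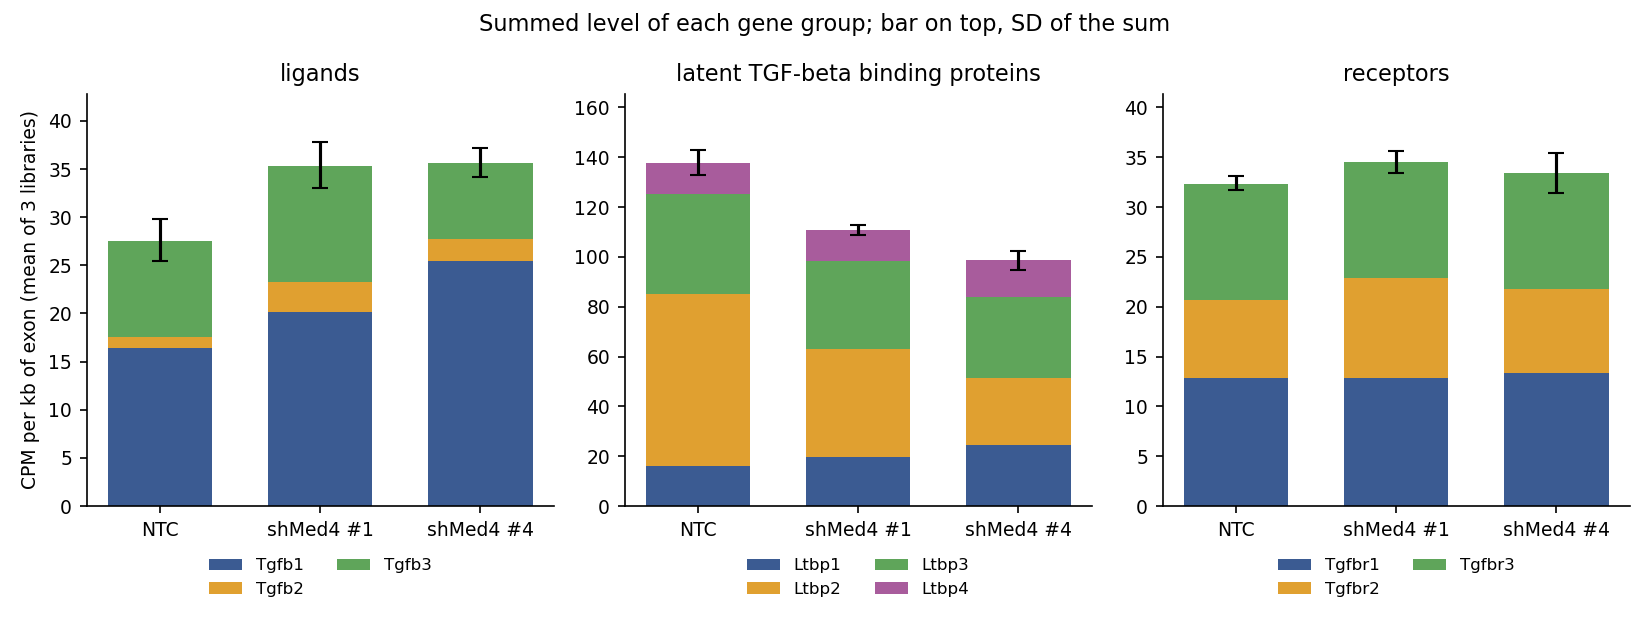
Mean CPM per kb of exon (vertical axes, from 0) stacked by gene for the 3 ligands, 4 binding proteins and 3 receptors in each group; error bars are the SD of the sum over 3 libraries. The binding-protein sum falls from 138 to 111 and 98.6 as Ltbp2 shrinks, the ligand sum is 27.6 in NTC against 35.4 and 35.7, and the receptor sum stays between 32.4 and 34.5.

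Position on the chromosome was also compared. Ltbp2 and Tgfb3 lie 1.18 Mb apart on chromosome 12 with 22 tested genes starting between them, and Tgfb1 and Ltbp4 lie 1.60 Mb apart on chromosome 7 with 12 between them. The 50 nearest tested genes around Ltbp2 had a median log2 fold change of -0.06 with shMed4 #1 and -0.21 with shMed4 #4, and those around Tgfb3 -0.04 and -0.09. Medians around Tgfb1 were 0.00 and 0.02, around Tgfb2 0.08 and -0.04, and around Ltbp1 -0.04 and 0.11. Around Ltbp3 they were 0.06 and -0.19, beside its own -0.18 and -0.32. Around Tgfbr2 they were 0.15 and 0.17, beside its own 0.37 and 0.12. Around Tgfbr1, which did not pass, they were 0.19 and 0.17. Tgfb1, Tgfb2, Tgfb3, Ltbp1, Ltbp2 and Ltbp3 changed by more than the medians around them with both hairpins. A single gene varies more than a median of 50, so this is a description. The part of position was not tested.

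The genes whose log2 CPM over the 9 libraries was most like that of Tgfb2 were Azin1, Ecscr and Nfx1 (Pearson r 0.991, 0.989 and 0.986). Azin1 encodes an antizyme inhibitor that raises polyamine synthesis, Ecscr a cell-surface regulator of endothelial cells and Nfx1 a zinc-finger protein. Azin1 went from 234 ± 16 CPM in NTC to 358 ± 8.6 and 329 ± 13 in the hairpin groups, with the highest level under shMed4 #1 as for Tgfb2. Most like Ltbp2 were Dpep3, a membrane dipeptidase (0.999), Zfp704, a zinc-finger protein (0.997), and Col4a2, a basement membrane collagen chain (0.997). Col4a2 went from 327 ± 7.1 to 109 ± 2.4 and 41.4 ± 1.8 CPM. These coefficients mostly reflect the order of the 3 groups, which the libraries share, and are given as a description.

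Other genes of the pathway changed in both directions. Of 20 listed activators and matrix partners of latent TGF-beta, 14 were tested. For the average of both hairpins 7 rose and 5 fell (median log2 fold change 0.05, against -0.01 for all genes). For that average 53.3% of all genes passed, 26.8% higher and 26.5% lower. Itgb3, the beta chain of an integrin that binds the TGF-beta propeptide, went from 6.90 ± 0.56 CPM in NTC to 42.8 ± 3.7 and 55.1 ± 2.4 (averaged log2 fold change 2.81, edgeR adjusted p = 5.04e-24). Itgb1, the common integrin beta chain, changed by 0.80, where the tested neighbours had a median of 0.29. Mmp2, a gelatinase that can release latent TGF-beta, went from 10 reads over the NTC libraries to 66 and 127 (3.10), against a median of -0.74 for its neighbours. Thbs1, the activator thrombospondin 1, fell from 1220 ± 22 CPM to 757 ± 7.7 and 846 ± 31 (-0.61). The other 4 that fell, named after their values were seen, were Itgb8 (-0.69) and Itgav (-0.31), the chains of the integrin that activates TGF-beta on many cells, the fibrillin Fbn1 (-0.52) and the membrane protease Mmp14 (-0.21). Fbn1 did not pass without NTC replicate 2 (edgeR adjusted p = 0.0877). The rise of the elastic fibre protein Emilin1 (0.14) was lost in 7 of 17 alternative settings, among them those without any 1 of the NTC libraries or without shMed4 #1 replicate 3 (edgeR adjusted p from 0.0543 to 0.091). The 6 not tested were Itgb6, Lrrc32, Nrros, Fbn2, Dcn and Fmod, among which Itgb6, the epithelial activator chain, had 8 reads in all.

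Of 14 receptor partners and modulators, all tested, 7 rose and 3 fell (median 0.23). This stands against 26.8% of all genes higher and 26.5% lower for the average. Acvrl1, the alternative type I receptor ALK1, went from 3.66 ± 0.85 CPM in NTC to 12.9 ± 0.94 and 19.5 ± 1.7 (averaged log2 fold change 2.10, edgeR adjusted p = 7.4e-15). The co-receptor Nrp1 changed by 0.46 beside 0.29 for its neighbours, the SMAD inhibitor Pmepa1 by 0.39 and the receptor-binding inhibitor Strap by 0.36. The 3 that fell, named after their values were seen, were the endocytic adaptor Dab2 (-0.37), the receptor-associated protein Tgfbrap1 (-0.25) and the SMAD4 ubiquitin ligase Trim33 (-0.16). Tgfbrap1 did not pass without NTC replicate 2 (edgeR adjusted p = 0.0737), nor Trim33 without NTC replicate 1 (edgeR adjusted p = 0.0807).

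Of 12 SMADs and corepressors, 11 were tested, 1 rose and 5 fell (median -0.02). Of all genes 53.3% passed for the average, 26.8% higher and 26.5% lower. Smad7, the inhibitory SMAD that TGF-beta itself induces, fell from 88.1 ± 1.1 CPM in NTC to 59.5 ± 3.5 and 64.2 ± 2.0 (averaged log2 fold change -0.51, edgeR adjusted p = 2.45e-10). The corepressor Tgif1 changed by -0.25, and Smad1, a SMAD of the BMP branch, by -0.40, which was also the median of its neighbours. The corepressor Ski rose by 0.27. The remaining 2 that fell, named after their values were seen, were the common SMAD, Smad4 (-0.16), and the corepressor Skil (-0.18, neighbours -0.35). Neither passed with the hairpins pooled as 1 group (edgeR adjusted p = 0.0886 and 0.0638), nor Smad4 without NTC replicate 3 (edgeR adjusted p = 0.0633). The receptor-activated Smad2 and Smad3 did not pass, with 95% intervals of -0.12 to 0.10 and -0.12 to 0.12.

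Of 30 genes known as targets of TGF-beta, 29 were tested, 14 rose and 9 fell for the average (median 0.17). The smooth muscle actin Acta2 went from 212 ± 12 CPM in NTC to 708 ± 20 and 1000 ± 90 (averaged log2 fold change 1.99, edgeR adjusted p = 7.3e-28). The Notch ligand Jag1 rose by 1.66 and the fibrillar collagen chain Col1a1 by 1.66. The protease inhibitor Timp1 rose by 1.30, beside 0.47 for its neighbours on the X chromosome. Of the feedback targets among the other lists, Pmepa1 rose while Smad7 and Skil fell. The other 6 that fell, named after their values were seen, were the lipase inhibitor Angptl4 (-0.51), the matricellular protein Ccn1 (-0.49, neighbours -0.35), the helix-loop-helix inhibitors Id1 (-0.47) and Id2 (-0.43), the transglutaminase Tgm2 (-0.25) and the transcription factor Snai2 (-0.16), beside Tgif1. The fall of Snai2 was lost in 8 of 17 alternative settings (edgeR or DESeq2 adjusted p from 0.0505 to 0.332), among them those without NTC replicate 1, shMed4 #1 replicate 2 or 3, or shMed4 #4 replicate 1 or 2. The rise of Cdkn2b, a cell cycle inhibitor (0.33), was lost in 4, with an edgeR adjusted p of 0.41 without NTC replicate 1 and 0.0651 without NTC replicate 2. The rises of Id3, Il11 and Rhob were each lost in 2, among them the setting without NTC replicate 2 for Id3 and Il11 and without NTC replicate 1 for Rhob. Of Tgm2 exon sequence 21.8% is shared with Rprd1b and Gm20412 on the other strand. Reads of Tgm2 and of these genes cannot be told apart where they overlap. The list also holds genes driven by other pathways. Its counts take no account of the direction in which TGF-beta moves each gene. Acta2, Timp1 and Col1a1 are also expressed by fibroblasts, and Col1a1, which rose, is itself among the 6 fibroblast markers. Of the other markers Pdgfra (-0.91, edgeR adjusted p = 7.58e-17) and Pdgfrb (-0.32, edgeR adjusted p = 1.58e-06) fell. Thy1, Dpt and Fap had 6, 1 and 0 reads in all. A part of fibroblasts in these changes was not tested. The share of all genes that passed for this average, 53.3% (26.8% higher and 26.5% lower), stands beside each of these counts.

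**Figure D4:**
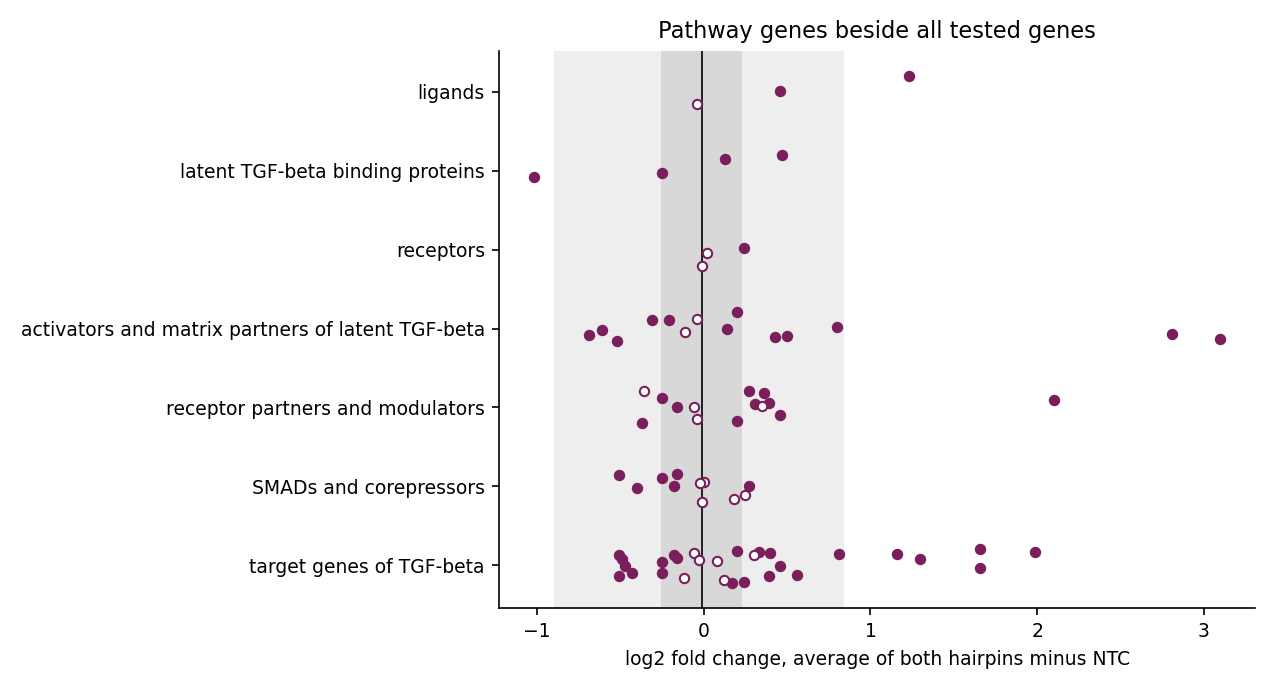
Averaged log2 fold change of both hairpins against NTC (horizontal axis) for each tested gene of the 7 lists; filled points passed an edgeR adjusted p of 0.05, vertical jitter has no meaning, and the shaded bands hold the central 50% (-0.25 to 0.22) and 90% (-0.89 to 0.83) of all 14335 genes. The 3 receptors sit inside or at the edge of the inner band, Tgfb2 and Ltbp2 lie outside the outer band, and Mmp2, Itgb3 and Acvrl1 are the points beyond 2.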

How the data were processed

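Per the labels' protocols, total RNA was isolated on an automated instrument with DNase treatment, and libraries were run on a BGISEQ-500. The submitters' processing notes name STAR, HTSeq and mm10/GRCm38, without versions. The authors deposited raw counts of reads for each gene, and 5 summary lines per file that name no gene were left out. Of all records, 49.5 to 51.6% fell in no gene, and alignments to several places, which were not counted, 10.5 to 11.6%. Identifiers matched a symbol for 55154 of 55335 genes. Coordinates and exon lengths came from GENCODE M21.

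Counts were fitted in R 4.3.3 with edgeR 4.0.16 (filterByExpr, minimum count 10, TMM factors, glmQLFit and glmQLFTest) as 1 model of 3 groups, with Benjamini-Hochberg adjustment over all genes and a threshold of 0.05. The standard error is the log2 fold change divided by the square root of F. Replicates differed by more than sampling noise (ratio of chi-square to its degrees of freedom 1.53 to 2.95), so each counted once. The steps were tested on simulated counts. The members, lists and tests were chosen with earlier results of these data known. Beside the 10 members, named genes are up to 4 per list with the smallest averaged adjusted p, the 3 genes most like Tgfb2 and Ltbp2 (mean CPM of at least 5), and those said to be named after their values were seen. Alternatives were DESeq2 1.42.0, 2 other scalings, limma-voom 3.58.1, 2 other filters, fits of only the groups compared, the replicate number as a block, and leaving out each library. Results for some genes are not reported here.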

Additional observations from a re-analysis of the deposited data

Results flagged for a closer look

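Levels differed between the hairpins in 8 of the 10 genes, against 28.0% of all genes. This was the direct test of shMed4 #4 against shMed4 #1. The calls for Tgfb2, Ltbp3 and Tgfbr2 were lost under some alternative settings, as given with those genes. The log2 differences were 0.33 for Tgfb1, -0.36 for Tgfb2, -0.62 for Tgfb3, 0.33 for Ltbp1, -0.69 for Ltbp2, -0.14 for Ltbp3, 0.26 for Ltbp4 and -0.25 for Tgfbr2. For Tgfb1, Ltbp1, Ltbp2 and Ltbp3 the change with shMed4 #4 went further in the direction of shMed4 #1, and for Tgfb3 it went the other way. Med4 itself also differed, with shMed4 #4 above shMed4 #1 by 0.67 (SE 0.18, edgeR adjusted p = 0.00401). The part of Med4 level in these differences was not tested.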

How the results depend on the processing

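Over 17 alternative settings, 655 of 680 values of the 10 genes kept their side of the threshold, 24 no longer passed and 1 newly passed, and no called change reversed, while values near 0 that did not pass (Tgfbr1, Tgfbr3, Ltbp4 with shMed4 #1 and Tgfb3 on average) changed sign under some settings. Those 25 values belong to Tgfb3 with shMed4 #1, Tgfbr2 with shMed4 #4, Ltbp4 on average, and the differences between hairpins of Tgfb2, Ltbp3 and Tgfbr2, and are given with those genes. Leaving out 1 library in turn, 6 to 7 of the 10 passed with shMed4 #1, 7 to 8 with shMed4 #4, 6 to 7 on average and 6 to 8 between hairpins. Over all genes these counts were 5159 to 6145, 7203 to 8183, 6719 to 7803 and 3262 to 4129. Upper-quartile factors moved log2 fold changes by -0.03 to -0.05 against NTC, with 3355 higher and 4353 lower calls for the average. Same-numbered libraries did not deviate together (r from -0.06 to 0.04), so the numbers were not taken to pair them. With the replicate block, 7, 7, 7 and 8 of the 10 passed, and 5828, 7807, 7537 and 3859 of all genes. Tgfb2, at 44 to 61 reads per NTC library, is the gene that depth limits most. Intervals and errors take reads as counted, without molecular identifiers.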
